A study of Mus musculus with 6 samples.

Results

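Lipid droplet proteins and lipases were followed in mouse liver through 10 genes, taken from the deposited table of 55385 genes by gene symbol: the perilipins Plin2, Plin4 and Plin5, the CIDE proteins Cidec and Cideb, the lipases Pnpla2 and Pnpla3, the lipase inhibitors G0s2 and Hilpda, and the fatty acid transporter Cd36. All 10 symbols matched 1 entry each. Liver RNA came from 6 mice of the C57BL/6 strain at 6 weeks of age, in 3 groups of 2. Wild-type controls (replicates 3 and 6) were injected intraperitoneally with 200 µL of buffered saline (PBS). Wild-type mice (replicates 1 and 4) and Optn-/- mice (replicates 4 and 5) received acetaminophen at 500 mg/kg by the same route, and livers were taken at 6 h in every group. Acetaminophen is bioactivated in hepatocytes and injures them, and Optn encodes optineurin, an autophagy receptor. The labels do not say how the Optn-/- allele was made or in which cells it acts, and no knockout mice given saline were analysed here, so a difference between genotypes without drug cannot be told apart from a difference in the response.

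Hepatocytes store fatty acids as triglyceride in lipid droplets, which have a neutral lipid core and a protein coat. Perilipins cover the droplet and limit access of lipases, CIDE proteins move lipid between droplets so that they grow, and the lipase ATGL (encoded by Pnpla2) starts the breakdown of stored triglyceride. G0s2 and Hilpda are small proteins that bind and inhibit ATGL. In the liver several of these genes, though not all, respond to fatty acid supply through PPAR nuclear receptors, and Hilpda was named for its induction by low oxygen.

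After acetaminophen 3 of the 9 genes that could be tested rose in wild type, Plin2, Cidec and Hilpda, where 8.36% of all genes tested rose. Each of these 3 calls ended when certain single libraries were left out, as given below. All 3 genes stood higher again in both treated knockouts, a genotype difference that did not pass the test. Their promoter sequences are therefore shown, from the RefSeq starts on GRCm38.p6, each as the 250 bases before a transcription start, 5′ to 3′ on the gene's strand. Capitals mark the core of the hypoxia response element, ACGTG or GCGTG on either strand, a motif searched because Hilpda is known as a hypoxia gene. Cidec has 2 RefSeq starts, and the Hilpda window shown is that of the upstream start.
Plin2 (chr4:86670060-86670309, minus strand): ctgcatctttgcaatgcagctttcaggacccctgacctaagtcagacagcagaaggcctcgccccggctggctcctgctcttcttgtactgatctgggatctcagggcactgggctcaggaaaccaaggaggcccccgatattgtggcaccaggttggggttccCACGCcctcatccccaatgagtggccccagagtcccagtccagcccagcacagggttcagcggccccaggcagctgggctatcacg
Cidec, upstream start (chr6:113435761-113436010, minus strand): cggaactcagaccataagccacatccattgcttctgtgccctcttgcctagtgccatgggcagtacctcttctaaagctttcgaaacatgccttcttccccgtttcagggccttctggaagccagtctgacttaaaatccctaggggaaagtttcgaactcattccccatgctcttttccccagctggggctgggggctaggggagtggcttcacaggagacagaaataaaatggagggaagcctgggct
Cidec, downstream start (chr6:113434765-113435014, minus strand): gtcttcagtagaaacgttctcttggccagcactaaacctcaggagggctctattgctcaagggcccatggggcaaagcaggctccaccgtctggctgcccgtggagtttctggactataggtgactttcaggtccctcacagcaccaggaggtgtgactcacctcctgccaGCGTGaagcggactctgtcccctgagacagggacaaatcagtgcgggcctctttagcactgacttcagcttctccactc
Hilpda, upstream start (chr6:29272238-29272487, plus strand): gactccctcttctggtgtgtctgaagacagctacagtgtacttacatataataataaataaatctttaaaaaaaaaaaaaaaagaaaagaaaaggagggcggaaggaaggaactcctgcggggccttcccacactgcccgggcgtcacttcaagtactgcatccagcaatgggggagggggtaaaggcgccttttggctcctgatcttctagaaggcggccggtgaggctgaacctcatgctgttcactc
The second Hilpda start lies within the first transcript, and of its window only the stretch around the ACGTG core is given.
Hilpda, before the downstream start (chr6:29272571-29272599, plus strand): gatggccagcggACGTGccccagggcgag

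The Plin2 window held 1 core, 86 bases before the start, the window of the downstream Cidec start held 1, 79 bases before it, and the windows of the upstream Cidec and Hilpda starts held none. The window of the downstream Hilpda start held 3 cores, at 8, 43 and 111 bases before the start. Among all 10 genes, which have 13 windows, 7 windows of 6 genes held a core, against 38.6% of the 32851 windows of the same length in the RefSeq table. A strict PPAR response element, 2 copies of AGGTCA in the same orientation with 1 base between them, was in 0 of the 13 windows and in 0.033% of all windows. A single AGGTCA, which is part of that motif, was found in windows of Plin2, Plin5 and Cd36, and in 14.0% of all windows. The pattern TGANTCA takes any base at N and is wider than the AP-1 site, which has C or G there. It lay 96 bases before the downstream Cidec start, 128 bases before the downstream Hilpda start and 11 bases before a Plin5 start. This wider pattern was in 6.75% of all windows. The Cidec and Plin5 matches read TGACTCA, and the Hilpda match reads TGAATCA, which is not that AP-1 site. Both strands were searched for each motif. These matches describe letters in the windows and were not tested for binding.

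Some facts of the libraries bear on every value. Total counts ran from 59143400 to 77292200 per library. Optn had an FPKM (fragments counted, scaled to gene length and to the library total) of 18.7 to 21.0 in the controls, 9.17 to 9.19 in treated wild type and 0.316 to 0.457 in the knockouts, as the genotype labels say. Skeletal muscle transcripts (12 markers summed, as CPM, counts scaled to the library total) were at 68.9 to 105.2 in control replicate 3 and both treated wild-type libraries and at most 1.01 in the other 3, which instead had more intestinal transcripts (12 markers, 42.9 to 62.0 against 10.8 to 15.1). Wild-type acetaminophen replicate 4 also carried neuron transcripts at 159.0 CPM, against at most 16.4 elsewhere. The genotype comparison therefore coincides with this division of the libraries, and these cannot be told apart without the controls, 1 of which lies on each side. Tests were edgeR's quasi-likelihood tests over the 11677 genes whose FPKM averaged 0.5 or more, with adjustment over all of them. With trimmed-mean scaling the median log2 fold change of all genes was 0.03 for acetaminophen in wild type, and with scaling by total count, as in FPKM, it was -0.19, so that FPKM ratios of treated to control livers lie below the fitted changes. Fold changes are read against these medians, and no member changed direction between the scalings. Of the 10 genes 9 passed the filter, and Pnpla3 did not.

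**Figure D1:**
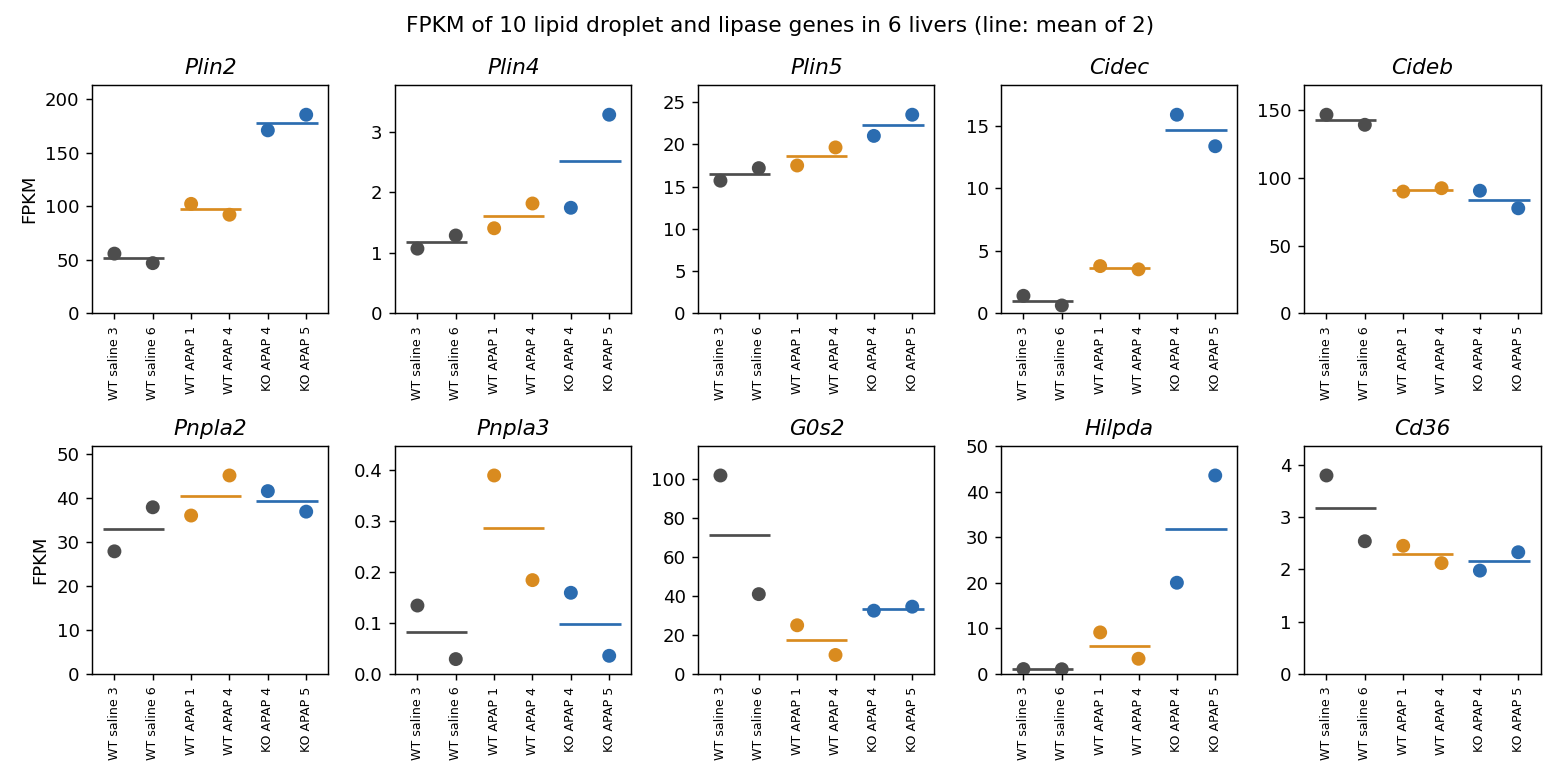
FPKM of each of the 10 genes (vertical axes, each from 0) in the 6 libraries (horizontal axes: wild type with saline, wild type with acetaminophen, APAP, and Optn knockout, KO, with acetaminophen). Points are single mice and lines are means of 2; Plin2, Cidec and Hilpda step upward from saline to treated wild type to treated knockout, and Cideb and G0s2 are highest in the saline livers.

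Among the perilipins, Plin2 was the most abundant in every library and rose with acetaminophen. Plin2 (ENSMUSG00000028494, chromosome 4, 86648386 to 86670060, minus strand, GRCm38) encodes perilipin 2, the main perilipin of the steatotic liver. Its FPKM was 55.7 in control replicate 3 and 46.8 in control replicate 6. Treated wild-type livers stood at 102.1 (replicate 1) and 92.0 (replicate 4), and knockout livers at 170.7 (replicate 4) and 185.3 (replicate 5). The 3 groups did not overlap, and every treated liver lay above both controls. In wild type Plin2 rose by 1.13 ± 0.15 on the log2 scale (SE, edgeR adjusted p = 0.0103). Without control replicate 6 the rise was 0.98 with an edgeR adjusted p of 0.0502, and the call held without any other single library.

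Plin5 and Plin4 are neighbours on chromosome 17, 1797 bases apart on the minus strand. Plin5 (ENSMUSG00000011305, 56111601 to 56117596) encodes perilipin 5, which tethers droplets to mitochondria in oxidative tissues. Its FPKM was 15.7 and 17.2 in the controls, 17.5 and 19.6 in treated wild type, and 21.0 and 23.5 in the knockouts, again without overlap between groups. The change in wild type was 0.38 ± 0.12 (log2, SE, edgeR adjusted p = 0.0913), or 0.17 with total-count scaling. Plin4 (ENSMUSG00000002831, 56100591 to 56109803), a perilipin of adipose tissue and muscle, was much lower, at 1.07 and 1.29 in the controls, 1.40 and 1.81 in treated wild type and 1.74 and 3.28 FPKM in the knockouts. Its log2 fold change in wild type was 0.66 ± 0.31 (edgeR adjusted p = 0.208). Plin4 shares 17 bases of exon with Hdgfl2 on the opposite strand, and the use of strand in counting is not given in the sources used here. Of the perilipins outside the set, Plin3 had an FPKM of 3.64 to 8.10 without a passing change, and Plin1, the adipocyte perilipin, had 4 counts in control replicate 3 and 0 in the other libraries.

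The makeup of the coat transcripts shifted with the level of Plin2. Summed over Plin1 to Plin5, perilipin FPKM was 78.0 and 73.4 in the controls, 125.3 and 119.2 in treated wild type and 197.1 and 217.7 in the knockouts. Plin2 took 71.4% and 63.8% of that sum in the controls, 81.5% and 77.2% in treated wild type, and 86.6% and 85.1% in the knockouts. The share of Plin5 was 20.1% and 23.4%, 14.0% and 16.5%, and 10.7% and 10.8% in the same order. A rise of Plin2 raises both this sum and its own share of it, so these are not results separate from that rise. The level of Plin5 did not fall. These are shares of FPKM and have no test.

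Of the CIDE genes, Cidec rose, while Cideb was lower in both treated wild-type livers without passing the test. Cidec (ENSMUSG00000030278, chromosome 6, 113424634 to 113435760, minus strand) encodes the protein also called FSP27, which enlarges droplets in adipocytes and in steatotic hepatocytes. Its FPKM was 1.40 and 0.630 in the controls (169 and 98 counts), 3.78 and 3.52 in treated wild type (503 and 505 counts), and 15.9 and 13.4 in the knockouts (2479 and 1689 counts). The groups did not overlap. In wild type Cidec rose by 2.05 ± 0.38 (log2, SE, edgeR adjusted p = 0.0233). The call depended on single libraries: the edgeR adjusted p was 0.0796 without wild-type acetaminophen replicate 1, 0.0588 without replicate 4, and 0.0558 and 0.0561 without knockout replicates 4 and 5, with log2 fold changes of 1.97, 2.13, 2.05 and 2.03. Without control replicates 3 and 6 it passed, with log2 fold changes of 2.75 and 1.55. With only the groups compared in the fit the edgeR adjusted p was 0.0645.

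Cideb (ENSMUSG00000022219, chromosome 14, 55754050 to 55758458, minus strand), the CIDE protein of normal hepatocytes, which takes part in the lipidation of very low density lipoprotein, had the highest FPKM of the 10 genes in the controls. It stood at 146.4 and 139.0 in the controls, 89.8 and 92.2 in treated wild type, and 90.4 and 77.4 in the knockouts. Both controls lay above all 4 treated livers. The change in wild type was -0.44 ± 0.14 with an edgeR adjusted p of 0.0868, and with total-count scaling it was -0.66 and passed (0.0222). Exons of Nop9 on the opposite strand cover 76.3% of the exon bases of Cideb, and without strand reads of these genes cannot be told apart. Nop9 had its highest count at 3197, where the lowest count of Cideb was 7832, and its log2 fold change was -0.30 ± 0.13 (edgeR adjusted p = 0.175). The ratio of Cidec to Cideb FPKM was 0.00958 and 0.00453 in the controls, 0.0421 and 0.0382 in treated wild type, and 0.176 and 0.173 in the knockouts.

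Of the lipases, Pnpla2 (ENSMUSG00000025509, chromosome 7, 141455198 to 141460743, plus strand) was well expressed in every liver. Its FPKM was 27.8 and 37.8 in the controls, 36.0 and 45.1 in treated wild type, and 41.5 and 36.8 in the knockouts, and the groups overlapped. The log2 fold change in wild type was 0.51 ± 0.19 (edgeR adjusted p = 0.128). Pnpla3 (ENSMUSG00000041653, chromosome 15, 84167837 to 84187236, plus strand), a relative of ATGL whose human variant is linked to fatty liver, had 14 and 5 counts in the controls, 43 and 22 in treated wild type, and 21 and 4 in the knockouts. At most 43 counts in a library left it below the filter. A fit without the filter gave a log2 fold change of 1.84 ± 1.26 in wild type (edgeR adjusted p = 0.509).

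Of the inhibitors of ATGL, Hilpda rose, while G0s2 was lower in both treated wild-type livers without passing the test. Hilpda (ENSMUSG00000043421, chromosome 6, 29272488 to 29275446, plus strand), whose windows were shown above, had an FPKM of 1.10 and 1.06 in the controls (79 and 97 counts), 9.14 and 3.36 in treated wild type (722 and 286 counts), and 20.02 and 43.5 in the knockouts (1856 and 3264 counts). The groups did not overlap, although treated mice of each genotype differed among themselves by more than the controls did. In wild type Hilpda rose by 2.75 ± 0.60 (log2, SE, edgeR adjusted p = 0.0346). It passed without wild-type acetaminophen replicate 4, with a log2 fold change of 3.32, but not without any other single library: the edgeR adjusted p was 0.14 and 0.137 without control replicates 3 and 6, 0.0897 without wild-type acetaminophen replicate 1, and 0.0521 and 0.0531 without knockout replicates 4 and 5. With the division of the libraries as a term the log2 fold change was 2.71 and the edgeR adjusted p 0.133. The log2 fold change was 1.81 without wild-type acetaminophen replicate 1. The call also ended with only the groups compared (edgeR adjusted p = 0.0562) and in limma on log2(FPKM + 0.5) (0.0531).

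G0s2 (ENSMUSG00000009633, chromosome 1, 193272161 to 193273217, minus strand) had an FPKM of 102.0 and 41.1 in the controls, 25.1 and 9.82 in treated wild type, and 32.6 and 34.6 in the knockouts. All treated livers lay below both controls, and the knockouts lay above treated wild type. The control values differed 2.48-fold between themselves, and the log2 fold change of -1.82 ± 0.58 in wild type did not pass in edgeR (adjusted p = 0.0918), while it passed in edgeR without the expression filter (-1.87, adjusted p = 0.0441) and in DESeq2 (adjusted p = 0.00481). It was -0.997 without control replicate 3 and -2.69 without wild-type acetaminophen replicate 1.

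Set against the lipase, there was less G0s2 and more Hilpda transcript in every treated liver than in either control. In the controls there were 3.66 and 1.09 FPKM of G0s2 for each FPKM of Pnpla2, in treated wild type 0.697 and 0.218, and in the knockouts 0.785 and 0.94. For Hilpda the same ratio was 0.0396 and 0.0281 in the controls, 0.254 and 0.0746 in treated wild type, and 0.482 and 1.18 in the knockouts. Hilpda made up 1.07% and 2.52% of the summed inhibitor FPKM in the controls, 26.7% and 25.5% in treated wild type, and 38.1% and 55.7% in the knockouts. Abhd5, the coactivator of ATGL, had an FPKM of 4.40 and 3.95 in the controls and 2.80 to 3.32 in the treated livers (log2 fold change in wild type -0.20 ± 0.16, edgeR adjusted p = 0.43).

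**Figure D2:**
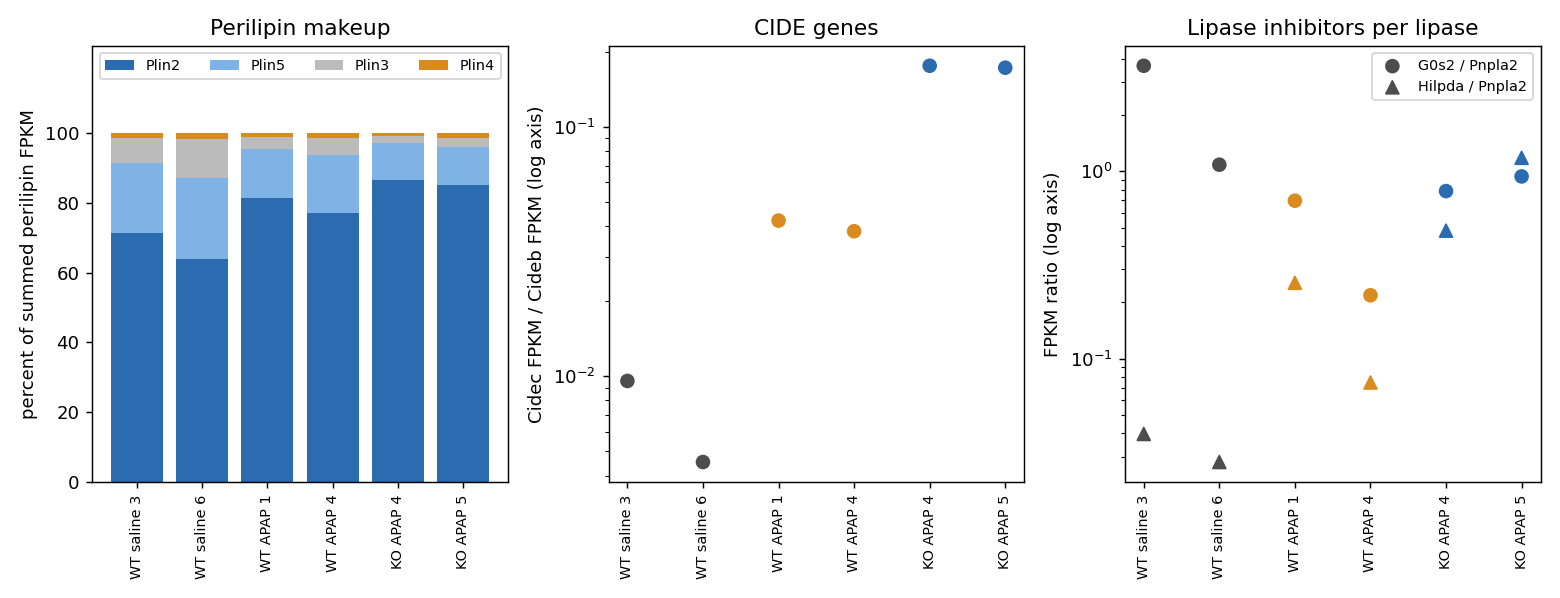
Left, stacked bars of each perilipin's percent of the summed perilipin FPKM per library (Plin1, at most 0.0153%, is not drawn); middle, Cidec FPKM per Cideb FPKM on a log axis; right, G0s2 (circles) and Hilpda (triangles) FPKM per Pnpla2 FPKM on a log axis. Colours give the group (grey, wild type with saline; orange, wild type with acetaminophen; blue, knockout with acetaminophen); the Plin2 share runs from 63.8% to 86.6%, and Hilpda exceeds G0s2 only in knockout replicate 5.

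Cd36 (ENSMUSG00000002944, chromosome 5, 17781690 to 17888801, minus strand), a scavenger receptor that takes up long-chain fatty acids, was low in these livers. Its FPKM was 3.79 and 2.54 in the controls, 2.45 and 2.12 in treated wild type, and 1.98 and 2.33 in the knockouts. The groups lay close together, and the log2 fold change in wild type was -0.26 ± 0.25 (edgeR adjusted p = 0.534).

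In all, 3 of the 9 genes tested rose with acetaminophen in wild type and 0 fell by edgeR (8.36% of all 11677 genes rose and 5.92% fell, 14.3% in all), and 7 of the 9 had an unadjusted p under 0.05, as did 3767 of all genes. The fitted log2 fold changes had a median of 0.51. FPKM of treated and control wild-type livers did not overlap for 8 of the 9, where 66.2% of all genes tested did not overlap (21.1% higher and 45.1% lower after acetaminophen). DESeq2 passed 4 higher and 2 lower, adding Plin5, Cideb and G0s2, where it passed 26.6% of all genes (1683 higher and 1419 lower). The order of the levels changed: in the controls Cideb (142.7 ± 5.25 FPKM, SD, n = 2) stood above G0s2 (71.5 ± 43.1), Plin2 (51.3 ± 6.27) and Pnpla2 (32.8 ± 7.07), and the single values of G0s2 lay on either side of those of Plin2. In treated wild type Plin2 (97.1 ± 7.16) and Cideb (91.0 ± 1.76) led, with ranges that met. In the treated knockouts Plin2 (178.0 ± 10.3) stood above Cideb (83.9 ± 9.15).

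The second comparison asks whether loss of Optn changes these genes in acetaminophen-treated liver. Plin2, Cidec and Hilpda were higher in both knockouts than in both treated wild-type livers, but 0 of the 9 genes passed in edgeR (0.0514% of all genes were higher, 0.0514% lower, and 0.103% passed in either direction), and 3 had an unadjusted p under 0.05, as did 1024 of all 11677. The log2 difference, knockout minus wild type, was 0.84 ± 0.15 for Plin2 (edgeR adjusted p = 0.271), 1.97 ± 0.37 for Cidec (edgeR adjusted p = 0.294) and 2.29 ± 0.57 for Hilpda (edgeR adjusted p = 0.45). DESeq2, which called 2.42% of all genes in this comparison against 0.103%, passed all 3 (adjusted p = 7.47e-05, 0.0001 and 0.00247). In edgeR with only the groups compared, Cidec passed (adjusted p = 0.0472). FPKM did not overlap between the genotypes for 5 of the 9 genes, against 39% of all genes (23.1% higher and 15.9% lower in the knockouts).

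The other 6 genes had unadjusted p-values above 0.05 between genotypes. G0s2 had a log2 difference of 0.90 ± 0.57 (edgeR adjusted p = 0.705), which was 1.77 without wild-type acetaminophen replicate 1 and 0.36 without replicate 4. Those of Plin4 and Plin5 were 0.61 ± 0.31 and 0.23 ± 0.12 (edgeR adjusted p = 0.639 and 0.65). Those of Cideb, Cd36 and Pnpla2 were -0.14 ± 0.14, -0.12 ± 0.25 and -0.07 ± 0.19 (edgeR adjusted p between 0.801 and 0.939). With the division of the libraries as a term, which rests on control replicate 3 against control replicate 6, the differences were 1.12 for Plin2, 3.14 for Cidec and 2.38 for Hilpda (edgeR adjusted p = 0.641, 0.107 and 1). That of Cidec differs from the reported value by over 1.5 times on the linear scale, and Cidec FPKM differed 2.23-fold between the controls. That of G0s2 became 2.24, and that of Hilpda was 3.23 without wild-type acetaminophen replicate 1, 1.73 without replicate 4 and 1.66 without knockout replicate 5 (edgeR adjusted p = 0.14, 0.624 and 0.728).

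**Figure D3:**
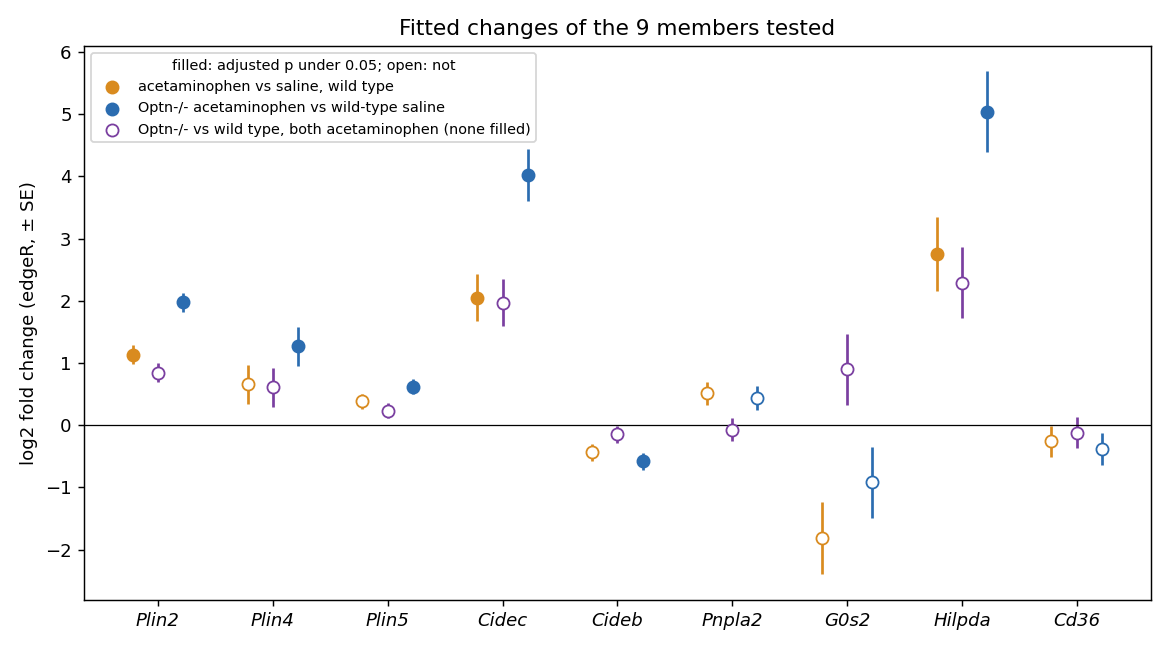
Fitted log2 fold changes (vertical axis) with standard errors for the 9 genes tested, in acetaminophen against saline in wild type (orange), treated knockout against treated wild type (purple) and treated knockout against wild-type saline (blue). Filled points passed at an edgeR adjusted p under 0.05; no purple point is filled, and Hilpda and Cidec show the highest values.

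The third comparison sets the treated knockouts against the wild-type controls, so genotype and drug differ together, and it shares the controls with the first and the knockouts with the second. Of the 9 genes 5 rose (12.2% of all genes did) and 1 fell (8.05% did), where 20.3% of all genes passed in either direction. FPKM did not overlap for 8 of the 9, against 68.8% of all genes (24.3% higher and 44.5% lower in the knockouts). The log2 fold changes were 1.97 ± 0.16 for Plin2 (edgeR adjusted p = 0.00187), 4.02 ± 0.41 for Cidec (0.0036) and 5.04 ± 0.65 for Hilpda (0.00634), and these 3 calls held without each library in turn and under all other alternatives. Their sizes moved: without single libraries Cidec ran from 3.53 to 4.72, highest without control replicate 3, and Hilpda from 4.39 without knockout replicate 5 to 5.48 without knockout replicate 4. In limma on log2(FPKM + 0.5) Cidec was at 3.36 and Hilpda at 4.25. Plin4 rose by 1.27 ± 0.31 (edgeR adjusted p = 0.04) and Plin5 by 0.62 ± 0.12 (0.0211), and Cideb fell, at -0.58 ± 0.14 (0.034). The calls of Plin4, Plin5 and Cideb ended with the division of the libraries as a term (edgeR adjusted p = 0.171, 0.119 and 0.158) and without either control, and those of Plin4 and Plin5 with total-count scaling (0.0637 and 0.0677). With only the groups compared Plin4 and Cideb were at 0.0552 and 0.057. Plin4 had a log2 fold change of 0.75 without knockout replicate 5 (edgeR adjusted p = 0.137). Plin4 and Cideb also lost their call without either treated wild-type library or knockout replicate 5, and Plin5 without either knockout, with edgeR adjusted p up to 0.137. G0s2 was at -0.92 ± 0.57 (edgeR adjusted p = 0.303), and at -0.09 without control replicate 3.

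**Figure D4:**
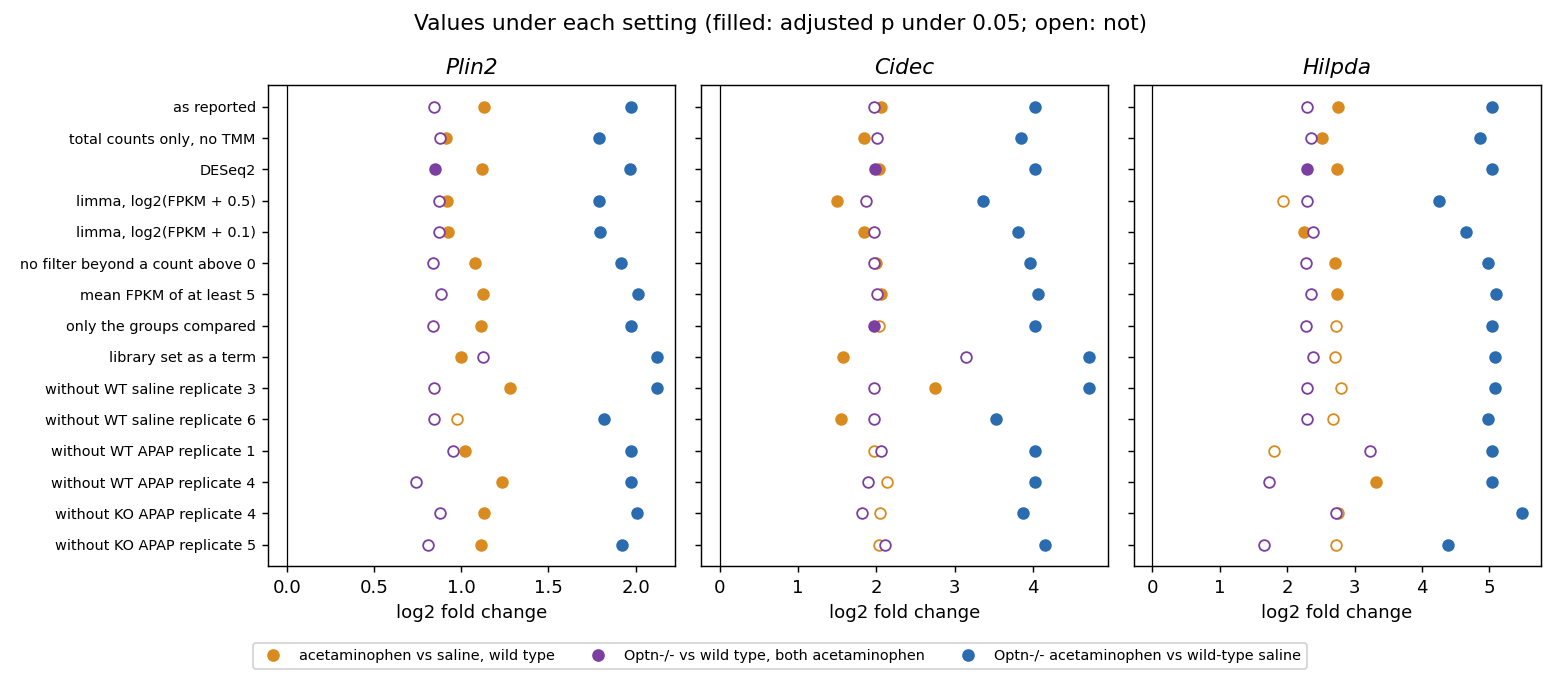
Log2 fold change (horizontal axis) of Plin2, Cidec and Hilpda as reported and under each alternative (rows), coloured by comparison and filled where the adjusted p was under 0.05. All points lie to the right of 0; the blue points (treated knockout against wild-type saline) are filled in every row, and the purple points (knockout against wild type, both treated) are filled with DESeq2 and, for Cidec, with only the groups compared.

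Other genes of lipid storage were read from 5 lists of 80 genes in all, which hold none of the 10 members. In acetaminophen-treated wild-type liver 15 of the 72 tested passed, 6 upward and 9 downward, where 14.3% of all genes passed, 8.36% upward and 5.92% downward. Total-count scaling gave 5 upward and 20 downward, and DESeq2 9 and 23. Over all 11677 genes total-count scaling gave 721 upward and 1470 downward, and DESeq2 1683 and 1419. The counts of single lists under these alternatives, given below, are to be read against the same numbers. Beyond the coat members, 2 of 12 tested genes of droplet coat and assembly fell and 0 rose: Fitm2, which partitions triglyceride into nascent droplets (log2 fold change -1.32 ± 0.23, edgeR adjusted p = 0.0193), and Acsl3, an acyl-CoA synthetase of droplets (-0.70 ± 0.16, 0.0399). Fitm1, its relative in muscle, was at -1.40 ± 0.40 (0.0704). The list's median was -0.32, against 0.03 for all genes. Of 16 other lipases and lipolysis genes 4 fell and 0 rose: the endothelial lipase Lipg (-2.12 ± 0.29, 0.0106), the phospholipases Pnpla6 (-1.27 ± 0.18, 0.0112) and Ddhd2 (-1.01 ± 0.19, 0.0228), and hormone-sensitive lipase Lipe (-1.10 ± 0.25, 0.0374), with a list median of -0.05. With total-count scaling 0 rose and 4 fell in the coat list and 0 rose and 6 fell in the lipase list, and with DESeq2 the counts were 0 and 5, and 1 and 6. Lipe went from an FPKM of 3.46 and 2.54 in the controls to 1.002 and 1.43 in treated wild type and 0.95 and 1.07 in the knockouts.

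Of 14 genes of triglyceride synthesis and export 1 rose and 1 fell. Gpat3, an acyltransferase of the initial step of glycerolipid synthesis, rose by 2.13 ± 0.19 (edgeR adjusted p = 0.00372), from an FPKM of 0.774 and 0.892 to 3.43 and 2.88, and stood at 5.49 and 6.47 in the knockouts. This order of the groups is that of Plin2, Cidec and Hilpda. Mttp, which loads lipid onto apolipoprotein B, fell by 0.52 on the log2 scale (SE 0.12, edgeR adjusted p = 0.0429), Agpat1 was at -1.19 ± 0.31 (0.0581), and Dgat2, which completes triglyceride, at -0.44 ± 0.14 (0.0895). Of 16 genes of fatty acid uptake and binding 2 rose and 0 fell, the fatty acid binding protein Fabp4 (1.53 ± 0.28, 0.0226) and Angptl4, a secreted inhibitor of lipoprotein lipase (0.84 ± 0.16, 0.0246). Fabp1, the fatty acid binding protein of hepatocytes, was at -0.76 ± 0.21 (0.0649). The medians of these 2 lists were -0.08 and -0.05. In the synthesis list 1 rose and 3 fell with total-count scaling, and 2 and 3 with DESeq2. In the uptake list 2 rose and 3 fell with total-count scaling, and 3 and 5 with DESeq2.

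Of 14 regulators 3 rose and 2 fell, with a median of -0.18. The hypoxia-inducible factors Hif1a (1.34 ± 0.24, edgeR adjusted p = 0.02) and Epas1 (0.90 ± 0.13, 0.0122) and the forkhead factor Foxo1 (0.66 ± 0.16, 0.0484) rose, while the lipogenic factors Srebf1 (-0.92 ± 0.14, 0.0133) and Mlxipl (-0.72 ± 0.14, 0.0272) fell. With total-count scaling 2 regulators rose and 4 fell, and with DESeq2 3 and 4. Ppara, the fatty acid receptor of hepatocytes, was at 0.00 ± 0.16 (0.988) and Pparg at -0.50 ± 0.33 (0.355). Of these 15 calls, that of Gpat3 was kept without each library in turn, and 6 of the 15 were kept with the division of the libraries as a term: Fitm2, Lipg, Pnpla6, Ddhd2, Gpat3 and Fabp4. The edgeR adjusted p of Acsl3, Lipe, Mttp and Foxo1 lay above the threshold whichever library was left out (0.0544 or more).

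**Figure D5:**
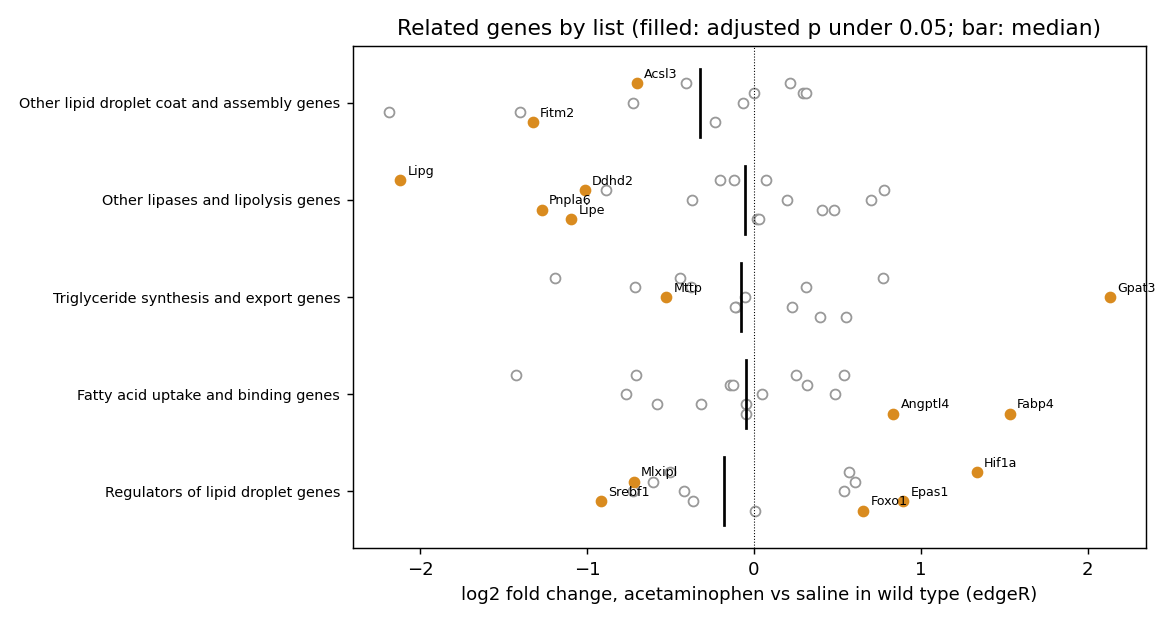
Log2 fold change with acetaminophen in wild type (horizontal axis) for the tested genes of the 5 lists (rows); named, filled points passed at an edgeR adjusted p under 0.05, and black bars are list medians. Gpat3 lies farthest right at 2.13 and the lowest named gene is Lipg at -2.12.

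Between treated genotypes 0 of the 72 related genes passed in edgeR, and 10 had an unadjusted p under 0.05, as did 1024 of all 11677 genes. DESeq2 passed 4, with Pcyt1a, Gpat3 and Slc27a2 higher and Mgll lower in the knockouts. Pcyt1a also passed in edgeR with only the groups compared (2.85, adjusted p = 0.023) and with the division of the libraries as a term (5.04, adjusted p = 0.0495). The smallest p in each list belonged to Pcyt1a, of phosphatidylcholine synthesis (2.86 ± 0.67, edgeR adjusted p = 0.416), Mgll, monoacylglycerol lipase (-1.56 ± 0.33, 0.331), Gpat3 (0.89 ± 0.18, 0.33), the transporter Slc27a2 (0.41 ± 0.12, 0.509) and Pparg (-0.92 ± 0.34, 0.531). Pcyt1a had an FPKM of 7.83 in control replicate 3 and 1.76 in control replicate 6, so its levels also differed widely without drug. Mgll, which completes the breakdown that ATGL starts, had an FPKM of 10.3 and 8.86 in the controls, 11.9 and 15.2 in treated wild type and 6.09 and 3.19 in the knockouts, without overlap. The next in each list were Acsl3 (0.39), Fitm2 (0.43), the carboxylesterases Ces1g (-0.45) and Ces2e (-0.50), Gpam (0.63), Agpat1 (-0.64), Fabp4 (0.74), Angptl4 (0.42), Mlxipl (0.31) and Cebpb (0.92), with edgeR adjusted p between 0.517 and 0.646.

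Cells other than hepatocytes express some of these genes. Of 10 adipocyte markers, Lep had 0 counts in every library (which allows up to 0.0507 CPM in the smallest), and Plin1, Acvr1c, Retn, Adipoq and Cidea had at most 4, 8, 9, 12 and 19 counts. The other 4 passed the expression filter. Fabp4, which macrophages and endothelial cells also express, was at 4.04 and 6.14 CPM in the controls, 13.6 and 11.6 in treated wild type and 17.5 and 25.8 in the knockouts, in the order of groups seen for Cidec, and it rose as given above. Adrb3 was at 2.55 to 4.32 CPM in all 6 libraries. Cfd was at 3.53 CPM in control replicate 3 and at most 0.672 in the other libraries. Car3, which hepatocytes also express, made up nearly all of the list's sum, which was 1731 to 2052 CPM in the controls, 1672 to 1782 in treated wild type and 517.4 to 1144 in the knockouts. Neutrophil markers (9) summed to 2.86 to 7.80 CPM in the controls, 73.0 to 149.9 in treated wild type and 156.6 to 201.5 in the knockouts. In this sum the groups stood in the order seen for Plin2, Cidec and Hilpda without overlap. S100a9 (70.7 and 31.6 CPM in treated wild type, 59.4 and 80.3 in the knockouts) and S100a8 (28.6 and 11.1, 27.2 and 34.9) overlapped between treated genotypes. The other neutrophil markers did not. By edgeR 0 of the 9 passed between treated genotypes, where 0.103% of all genes did. Stellate cell markers (8) gave 185.6 to 241.5, 237.6 to 320.7 and 431.1 to 496.4 CPM, and macrophage markers (8) 133.4 to 369.8, 282.0 to 331.2 and 357.6 to 541.0, each given for controls, treated wild type and knockouts in turn. Of the macrophage list, Marco was at 2.99 and 7.15, 44.2 and 34.0, and 95.9 and 49.4 CPM. Every other macrophage marker overlapped between controls and treated wild type. The stellate markers did not move together: Lrat was at 8.54 and 8.24, 1.91 and 1.63, and 2.52 and 2.57 CPM. Of 7 stellate markers tested by edgeR, 0 rose and 1 fell in wild type (8.36% and 5.92% of all genes). In treated knockouts against the controls 4 rose and 1 fell (12.2% and 8.05% of all genes). Monocyte markers (8) gave 1181 to 1348, 1543 to 1676 and 1665 to 1935 in the same order. Fn1 alone made up 1153 and 1287 CPM of this sum in the controls, 1355 and 1561 in treated wild type and 1599 and 1405 in the knockouts. Chil3, of the same list, had an FPKM of 0.107 and 0.0814 in the controls, 1.73 and 1.40 in treated wild type and 5.78 and 6.57 in the knockouts. Such a marker passes the expression filter only through the treated livers and could hardly fall. A count of calls is therefore not given for the monocyte markers. Platelet markers (5) gave 3.08 to 3.70, 10.6 to 16.7 and 21.6 to 24.0. Endothelial markers (8), a source of Cd36 and Fabp4, gave 80.8 to 139.9, 102.1 to 108.6 and 131.8 to 145.0. They did not move together either. Lyve1 was at 1.98 and 5.46, 13.0 and 11.4, and 20.1 and 29.3 CPM. Kdr was at 17.0 and 20.6, 13.2 and 10.5, and 11.7 and 8.40 CPM. Hepatocyte markers (10, led by albumin) took 125987 to 133213, 151409 to 152546 and 111618 to 143547 CPM. In bulk tissue fewer cells of a type and less RNA per cell cannot be told apart, and the part of these cells in the changes of the members was not tested.

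By the distance between centred log2 CPM profiles over the 6 libraries, the genes most like Plin2 were Myl9 (r = 0.998), Iffo2 (0.997) and Chil3 (0.997), and 330 tested genes had an r above 0.95 with it. Those most like Hilpda were Slc43a3 (0.995), Nrbp2 (0.994) and Dleu2 (0.994), with 231 genes above 0.95. Among those most like Cd36 were Tmem141 (0.989) and Prpf6 (0.987), with 18 genes above 0.95. The 6 points of each profile fall into 3 groups and share the libraries, so these values are a description.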

How the data were processed

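Poly(A) RNA of 6 livers was sequenced as paired ends, per the labels' protocols, which also speak of an adipose type although the tissue label is liver. The deposited table holds a whole-number count and an FPKM value per gene and library, per the file headers. Genes with a count of 0 are listed by the authors at a small positive FPKM. Bowtie 0.12.2 and mm8 are named in the submitters' processing notes, but coordinates equal GENCODE M21 (GRCm38) for 51954 of 55144 shared genes. How reads were counted, and whether by strand, is not given in the sources used here. Total counts were 59143400 to 77292200 per library, and FPKM is scaled to them.

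Counts were fitted with edgeR 4.0.16 (quasi-likelihood, TMM scaling) in 1 model of 3 group means without covariates, over 11677 genes whose FPKM averaged 0.5 or more, at a Benjamini-Hochberg adjusted p under 0.05. The model had 3 residual and 2.93 prior degrees of freedom and a common biological coefficient of variation of 0.277. Each SE printed with an edgeR log2 fold change was derived from the test. It is the size of that change divided by the square root of the quasi-likelihood F statistic. The fit was also run on simulated counts with a smaller spread than that of these data, which does not measure how reliable the calls here are. An exact permutation test of 2 against 2 cannot give p below 0.333, so none was used. The design text calls the 2 samples of a group individual animals.

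Members and lists were chosen with earlier results of these data known. Named genes were all members, up to 3 genes of smallest p per list in the first 2 comparisons, a set of anchors (Plin1, Plin3, Abhd5, Lipe, Dgat2, Ppara, Pparg), and the 3 nearest profiles of Plin2, Hilpda and Cd36 (log2 CPM with a prior of 0.5), of which 1 is not reported here. The other genes of the lists that passed in wild type (Mlxipl, Foxo1), Nop9 and Optn were named after their values were seen. Of 80 pathway and 100 marker genes, 1 (Ldaf1) did not match. Alternatives used DESeq2 1.42.0 and limma 3.58.1. Promoter motifs were chosen with the values known.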

Additional observations from a re-analysis of the deposited data

How the results depend on the processing

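Alternatives were total-count scaling, DESeq2, limma on log2(FPKM + 0.5) and log2(FPKM + 0.1), no filter beyond a count above 0, a mean FPKM of at least 5, only the groups compared, the division of the libraries as a term, and leaving out each library. Of 372 fold changes of members under them, 316 kept their direction and side of the threshold, 40 no longer passed, 11 newly passed and 5 reversed. The reversals were of changes that never passed: Cd36 ran from -0.56 to 0.078 in wild type over the left-out libraries, above 0 without control replicate 3. Between genotypes Cd36 was at 0.49 with the library division as a term and ran from -0.25 to 0.021 over the left-out libraries, above 0 without wild-type acetaminophen replicate 1. Pnpla2 there ran from -0.20 to 0.065, above 0 without wild-type acetaminophen replicate 4 and, at 0.03, without knockout replicate 5. Members past the threshold in wild type were 3 as reported, 6 with DESeq2 and 1 with only the groups compared. Between genotypes they were 0 as reported, 3 with DESeq2 and 1 with only the groups compared. In treated knockouts against wild-type saline they were 6 as reported and 3 with the library division as a term. Leaving out 1 library gave 1 to 2, 0 to 0 and 3 to 5 members in these comparisons, with a lone sample then assumed to vary like the other groups. The causes were not tested. Over all genes, DESeq2 called 3102, 283 and 3619 where edgeR called 1667, 12 and 2366. The library division as a term gave 812, 3 and 960, and a mean FPKM of at least 5 gave 819, 13 and 1035 of only 4266 genes tested (19.2%, 0.305% and 24.3%, against 14.3%, 0.103% and 20.3%). Between genotypes only the groups compared gave 30, no filter 37 of 27227 genes and limma with 0.5 added 27. Leaving out 1 library gave 494 to 1263, 1 to 28 and 750 to 2201. In direction, total-count scaling turned 976 higher and 691 lower in wild type into 721 and 1470, and 1426 and 940 in the third comparison into 1134 and 1756. No paired analysis was possible because the groups share at most 1 replicate number. Low counts limit Pnpla3 (at most 43 per library) and, in the controls, Cidec (98 and 169) and Hilpda (79 and 97).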
